A study of Homo sapiens with 12 samples.

Results

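The endoplasmic reticulum (ER) folding module described here comprised 45 genes for luminal chaperones and co-chaperones, disulfide isomerases and oxidases, stress sensors, ER-associated degradation (ERAD), protein translocation and early secretory transport. The genes were listed by symbol and found by mapping the Ensembl identifiers of the count table to symbols, and all 45 were among its 61806 identifiers. Expression was measured by poly(A) RNA sequencing in 12 libraries of 4 groups with 3 libraries each. Cells labelled Hep3B, a human liver cancer line kept in DMEM, carried a Tet-on-induced control shRNA (labelled Con sh) or a Tet-on-induced shRNA against CD146 (CD146 sh). HepG2 cells, another human liver cancer line, kept in MEM, carried the vector pLVX or a CD146 vector (CD146oe). CD146, encoded by MCAM, is an immunoglobulin-family adhesion molecule of the cell surface. The comparisons addressed how ER genes responded when MCAM transcript was lowered in the one line or raised in the other, and how the control cells of both lines differed. The labels do not say whether the 3 libraries of a group came from separate cultures or carried different hairpins, so the p-values reflect only how far these libraries scattered, which could be technical variation.

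Proteins destined for secretion or for membranes enter the ER through the SEC61 channel, lose their signal peptide, receive glycans and fold with the help of BiP (HSPA5), GRP94 (HSP90B1), the lectins calreticulin and calnexin, and protein disulfide isomerases. Unfolded proteins activate IRE1 (ERN1), PERK (EIF2AK3) and ATF6: IRE1 splices XBP1 mRNA into a form that encodes an active transcription factor, cleaved ATF6 also enters the nucleus, and PERK slows translation and favours that of ATF4. XBP1 and ATF6 act on chaperone and ERAD genes. Hepatocytes secrete plasma proteins in bulk and hold a large ER. The gene counts used here do not separate spliced from unspliced XBP1 mRNA, and phosphorylated IRE1 or PERK and cleaved ATF6 are proteins that RNA sequencing does not measure.

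Promoters of the module were searched for 3 short elements known to bind these factors. The ER stress response element (ERSE) was searched as CCAAT, any 9 bases and CCACG, ERSE-II as ATTGG, any 1 base and CCACG, and the core of the unfolded protein response element (UPRE) as TGACGTGG, on both strands, in the 300 bases from 250 before to 50 after the gene start in RefSeq (GRCh38.p14). Sequences were found for 40 members. PDIA3, DERL1, DERL3, SEC24D and KDELR2 had no entry. ERSE was present in 7 of the 40 promoters (17.5%), against 0.0806% of all 27305 promoters. ERSE-II was present in 3 (7.5%, against 0.0549%) and the UPRE core in 3 (7.5%, against 0.795%), and 12 members (30%, against 0.927%) carried at least 1 of them. The members were listed as genes of ER folding and stress, so these shares describe the list and are no test of enrichment. The windows below are shown because they belong to chaperones, folding factors, the ERAD gene HERPUD1 and XBP1, whose transcripts are described next. They run 5′ to 3′ on the strand of the gene, the capitals mark the bases fixed by the search and, in ERSE-II, also its free middle base, and an element on the opposite strand reads as its reverse complement.

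HSPA5, ERSE, chr9:125241385-125241414, minus strand: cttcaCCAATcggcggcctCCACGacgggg
HSP90B1, ERSE, chr12:103930211-103930240, plus strand: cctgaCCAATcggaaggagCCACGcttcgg
HSP90B1, ERSE, chr12:103930316-103930345, plus strand: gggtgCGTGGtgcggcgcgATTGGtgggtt
CALR, ERSE, chr19:12938379-12938408, plus strand: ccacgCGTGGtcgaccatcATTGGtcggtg
CANX, ERSE, chr5:179698773-179698802, plus strand: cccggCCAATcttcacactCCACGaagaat
CRELD2, ERSE, chr22:49918549-49918578, plus strand: cctctCGTGGcgaactcggATTGGgccata
XBP1, ERSE, chr22:28800597-28800626, minus strand: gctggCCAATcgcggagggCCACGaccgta
HYOU1, ERSE-II, chr11:119057370-119057399, minus strand: gccccgtgaCGTGGTCCAATcccaggccga
HYOU1, ERSE-II, chr11:119057264-119057293, minus strand: ggcctgggaCGTGGTCCAATgagtacgcgc
HERPUD1, ERSE-II, chr16:56932016-56932045, plus strand: cggacgccgATTGGGCCACGttgggagagt
SDF2L1, ERSE-II, chr22:21642105-21642134, plus strand: cctcggaagCGTGGACCAATcaaaaccctc
DNAJC10, UPRE core, chr2:182716121-182716150, plus strand: cgcgcacaccgCCACGTCAacctaaaccta

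HSP90B1 and HYOU1 each held their element at 2 places. The UPRE core of HYOU1 overlapped the farther of its ERSE-II elements. ERO1B carried ERSE and KDELR3 the UPRE core as well. A match describes letters in the window and is not a measurement of binding.

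MCAM was checked first. In CPM (counts relative to library size, scaled together over the 12 libraries), it measured 104, 102 and 108 in the control shRNA libraries and 20.1, 22.1 and 24.5 in the CD146 shRNA libraries (log2 fold change -2.25 with SE 0.06, adjusted p 5.5e-29). In HepG2 it measured 25.0, 25.8 and 25.8 with pLVX and 2130.4, 2124 and 2089 with the CD146 vector (log2 fold change 6.37 with SE 0.04, adjusted p 5.6e-67). The targeted transcript thus moved as labelled, down to 21.2% of control in the one comparison and up 82.6-fold in the other.

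The tissue label was checked against 15 hepatocyte markers. All 15 reached a mean of 10 CPM in both HepG2 groups, and none did in either group labelled Hep3B. HNF4A was nonetheless detected in both groups labelled Hep3B. It had 99 to 165 counts (6.96 to 9.89 CPM of the library total) with control shRNA. With CD146 shRNA it had 145 to 152 counts (8.38 to 10.3 CPM). In the control shRNA libraries 12 of the 15 had at most 3 counts in every library, and ALB had at most 5. It reached 298 counts in CD146 shRNA library 3 alone, where the summed level of the hepatocyte markers was 83.6 CPM of the library total against 9.49 in the lowest library of its group. These libraries are therefore called "labelled Hep3B" throughout. Totals ran from 12772991 to 18129816 counts, where 3 counts correspond to 0.165 to 0.235 CPM, and the biological coefficient of variation was 3.79% in the knockdown fit and 2.92% in the overexpression fit. In both groups labelled Hep3B, library 1 was the lowest of the 3 for 35 of 44 members, against 34.4% and 34.2% of all genes. In these bulk samples a change in the share of cells of a type and a change in RNA per cell cannot be told apart.

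In libraries labelled Hep3B, most of the module was higher with CD146 shRNA. Of 44 members that passed the filter on low counts, 34 rose, 5 fell and 5 were not called at an adjusted p of 0.05. Over all 16968 genes tested 55.3% were called, 26.8% upward and 28.5% downward. The median log2 fold change was 0.47 over the members and 0.00 over all genes. A rise of at least 1.5-fold was seen in 19 members, against 12.5% of all genes, and a fall of that size in 1 member, against 6.78%. The libraries of the 2 groups did not overlap for 34 members that were higher and 3 that were lower, against 29.2% and 30.7% of all genes (59.8% in all). Together the members took 1.29, 1.36 and 1.38% of all counts in the control libraries and 1.81, 1.97 and 1.97% in the CD146 shRNA libraries. The plot by library shows these values for each gene.

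**Figure D1:**
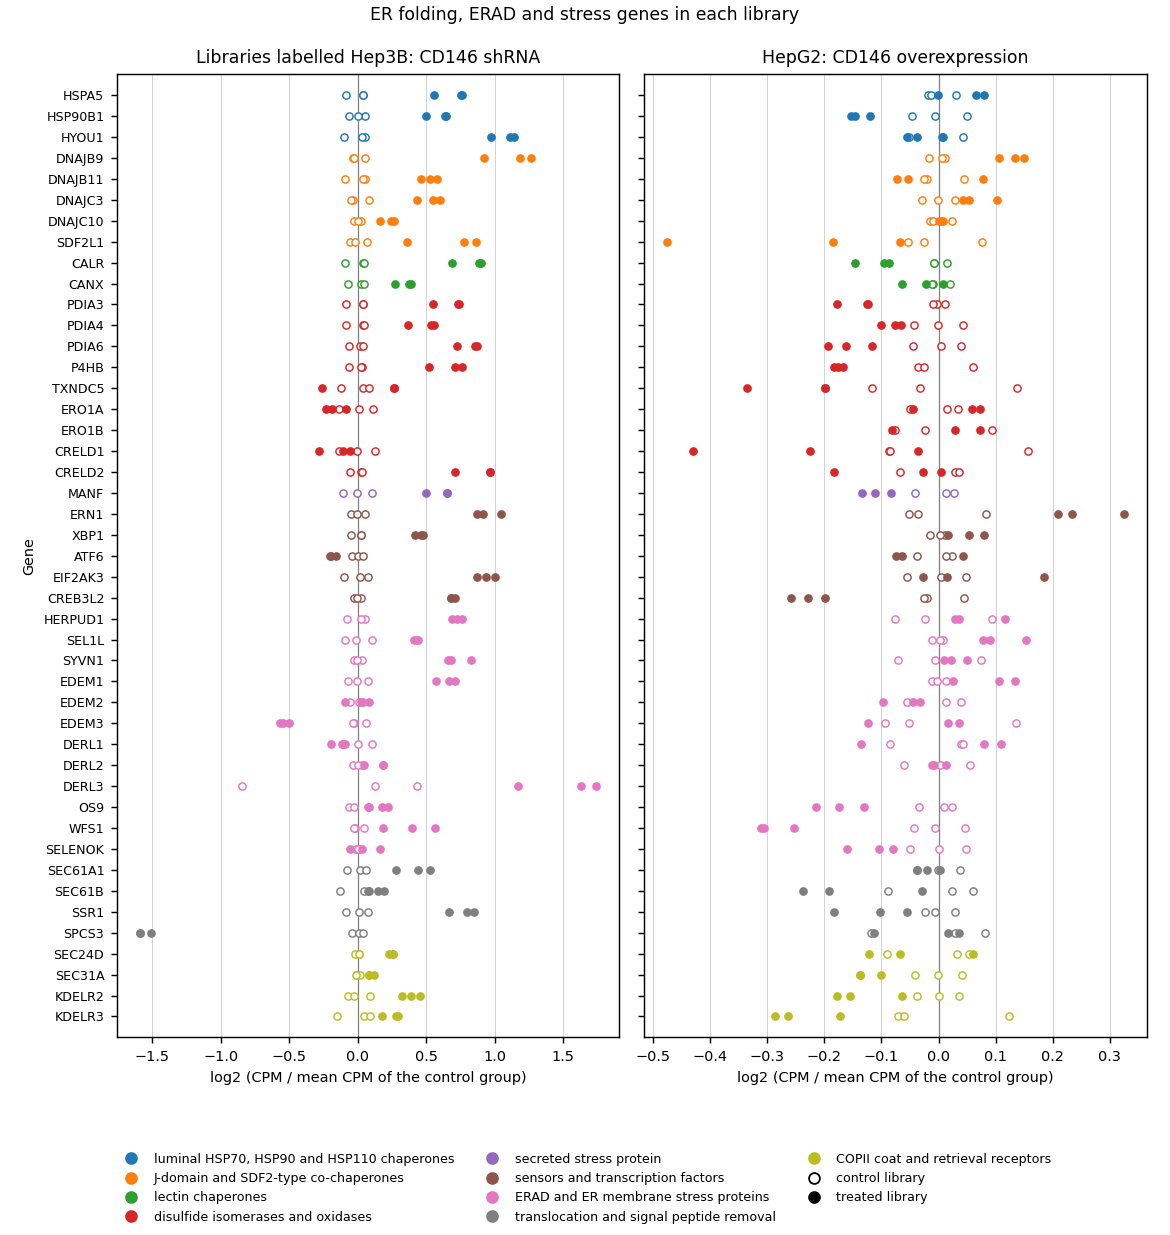
Log2 CPM of each library relative to the mean of its control group, for the members that passed the filter, ordered by role, with the knockdown libraries (labelled Hep3B) on the left and the overexpression libraries (HepG2) on the right. Each point is a library and the horizontal scales of the panels differ. Most knockdown points lie to the right of 0 and SPCS3 lies far to the left, while the overexpression points stay close to 0.

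Among the luminal chaperones, all 3 members of the HSP70, HSP90 and HSP110 families rose. HYOU1 (GRP170, a nucleotide exchange factor of BiP, chr11:119044189-119057202, minus strand in GENCODE 29, GRCh38) measured 197, 219 and 215 CPM with control shRNA and 412, 463 and 456 CPM with CD146 shRNA (log2 fold change 1.08 with SE 0.05, adjusted p 2.8e-22). HSPA5 (chr9:125234853-125241330, minus strand), the main ER HSP70 that also holds the sensors inactive, measured 1339, 1457 and 1456 CPM in the controls and 2083, 2406 and 2388 CPM after knockdown (log2 fold change 0.69 with SE 0.05, adjusted p 1e-15). Every CD146 shRNA library lay above every control library for both genes. HSP90B1 (GRP94), which folds integrins and Toll-like receptors, had a log2 fold change of 0.60.

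All 5 co-chaperones rose. DNAJB9 (ERdj4), a J-domain protein that recruits BiP to IRE1 and is a well-known XBP1 target, measured 20.7, 20.8 and 21.9 CPM in the controls and 50.8, 39.9 and 48.0 CPM after knockdown (log2 fold change 1.13 with SE 0.07, adjusted p 2.1e-16). Its groups stood far apart, with the lowest knockdown library above the highest control. SDF2L1, a partner of the J-domain proteins, followed with 0.67, then DNAJB11 and DNAJC3 with 0.53 each and DNAJC10, a reductase of ERAD, with 0.22, all as log2 fold changes. Of these 8 genes, SDF2L1, HYOU1, HSPA5, HSP90B1 and DNAJC10 hold one of the printed elements, and DNAJB9, with the largest rise, and DNAJB11 and DNAJC3 hold none in the window searched. DNAJC10 had the smallest rise.

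Both lectin chaperones rose. CALR, calreticulin, which also buffers ER calcium, measured 822, 900.3 and 902 CPM in the controls and 1411, 1619 and 1637 CPM after knockdown (log2 fold change 0.83 with SE 0.05, adjusted p 4.6e-18). It was the member with the highest level per transcript length in all 4 groups, at 347 ± 16.2 FPKM (the authors' length-normalised value, mean ± SD, n = 3) with control shRNA and 600.3 ± 43.1 FPKM with CD146 shRNA. CANX, the membrane-bound relative calnexin, rose by a log2 fold change of 0.35.

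Of the 8 disulfide isomerases, oxidases and related proteins tested, 5 rose, 1 fell and 2 were not called. PDIA6, an isomerase that also damps IRE1, measured 399.5, 421 and 429 CPM in the controls and 689, 754 and 763 CPM after knockdown (log2 fold change 0.82 with SE 0.04, adjusted p 3e-19), with no overlap between groups. CRELD2, a secreted protein with disulfide isomerase motifs, had the largest log2 fold change of these, 0.88, followed by PDIA3 and P4HB with 0.67 each, and PDIA4 with 0.49. ERO1A, the oxidase that recharges PDI, went the other way, with 129, 142 and 152 CPM in the controls and 120.5, 124 and 133 CPM after knockdown (log2 fold change -0.17 with SE 0.05, adjusted p 0.0048). Its groups overlapped, and without control library 3 its adjusted p was 0.08. TXNDC5 and CRELD1 were not called, and ERO1B, with 1 to 4 counts in each of these libraries, was not tested. MANF, a small secreted protein retained through KDEL receptors, rose by 0.60.

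Of the 5 sensors and transcription factors, 4 rose and ATF6 fell. ERN1 (chr17:64039142-64130819, minus strand) measured 40.6, 41.8 and 43.4 CPM with control shRNA and 79.2, 86.5 and 76.6 CPM with CD146 shRNA (log2 fold change 0.95 with SE 0.05, adjusted p 4.9e-18). EIF2AK3, which encodes PERK, measured 48.3, 52.5 and 54.5 CPM and 94.7, 99.0 and 104 CPM in the same order (log2 fold change 0.93 with SE 0.05, adjusted p 1.6e-18). The ERN1 transcript was thus at 193% and that of EIF2AK3 at 191% of control, with no overlap between groups. XBP1 measured 168, 176 and 177 CPM in the controls and 232, 239 and 242 CPM after knockdown (log2 fold change 0.45 with SE 0.04, adjusted p 5e-12). CREB3L2, an ATF6-like factor that activates COPII genes, measured 299, 289 and 293 CPM and 471, 480.2 and 471 CPM (log2 fold change 0.69 with SE 0.04, adjusted p 4.6e-18). For both the knockdown libraries lay above all controls. ATF6 was lower in each knockdown library, with 141, 146 and 149 CPM in the controls against 131, 127 and 127 CPM (log2 fold change -0.18 with SE 0.04, adjusted p 0.0004).

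**Figure D2:**
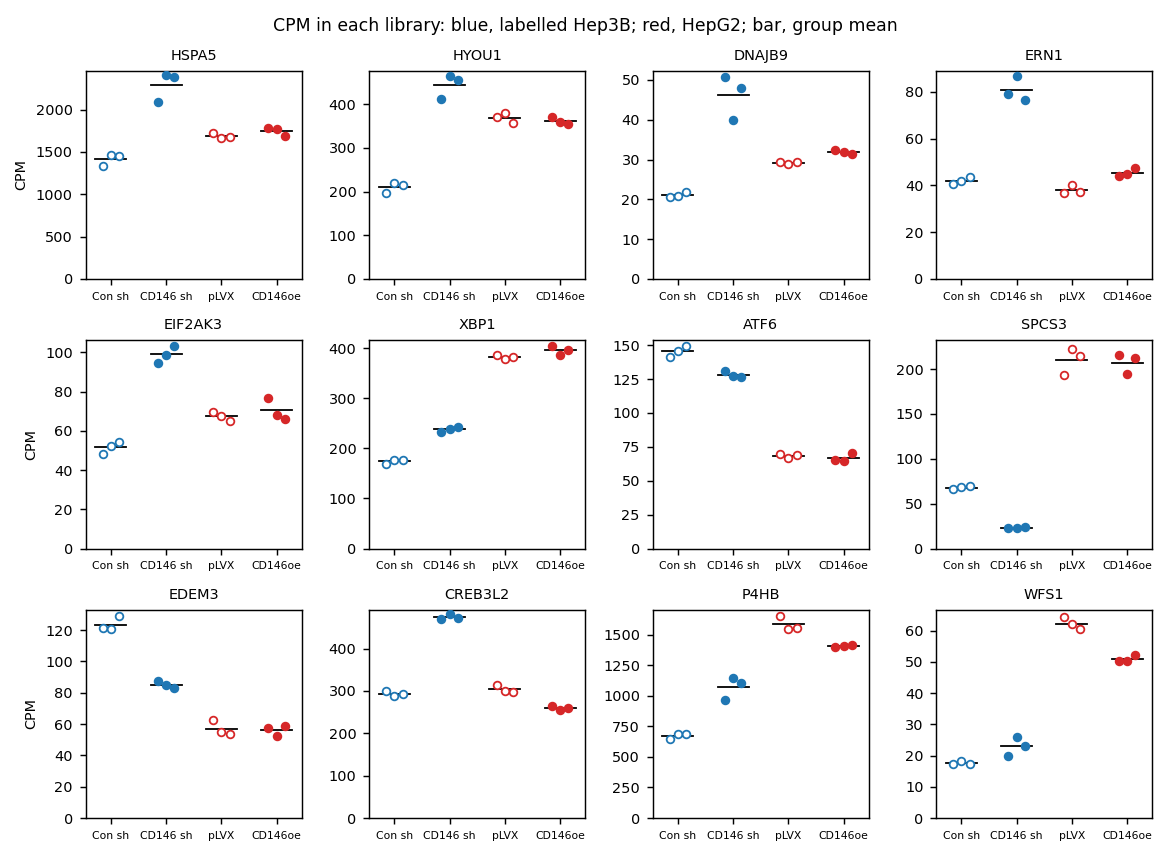
CPM of 12 members in each of the 12 libraries, on linear axes that start at 0, with the mean of each group as a line, libraries labelled Hep3B in blue and HepG2 in red. The knockdown libraries lie above their controls for the genes that rose and below them for SPCS3, EDEM3 and ATF6, and both HepG2 groups lie close together.

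Among the 12 ERAD and ER membrane proteins, 8 rose, 2 fell and 2 were not called. HERPUD1, a membrane scaffold of the retrotranslocation complex and a stress-induced gene, measured 66.0, 72.3 and 70.9 CPM in the controls and 112, 119 and 115 CPM after knockdown (log2 fold change 0.73 with SE 0.05, adjusted p 2.8e-16). The ubiquitin ligase SYVN1 (HRD1) had 0.72, its partner SEL1L 0.43, and the mannosidase-like EDEM1, which extracts glycoproteins from folding, 0.65, all as log2 fold changes. WFS1, wolframin, had 0.39, the lectin OS9 0.16 and DERL2 0.14. The groups overlapped for OS9, and its call was lost with limma on FPKM. Of the paralogs of EDEM1, EDEM3 fell, with 121, 120.5 and 129 CPM in the controls and 87.3, 84.9 and 83.3 CPM after knockdown (log2 fold change -0.54 with SE 0.05, adjusted p 6.1e-13), and EDEM2 was not called. DERL1 fell slightly, with 73.7, 80.0 and 85.6 CPM in the controls and 69.7, 74.0 and 75.0 CPM after knockdown (log2 fold change -0.13 with SE 0.05, adjusted p 0.032), and its groups overlapped. The DERL1 call was lost with DESeq2 (adjusted p 0.11) and without control library 2, control library 3 or CD146 shRNA library 1 (adjusted p 0.069, 0.25 and 0.15). SELENOK was not called.

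DERL3 had the largest rise of the module, a log2 fold change of 1.52 (SE 0.27, adjusted p 6.6e-06), from 0.537, 1.05 and 1.30 CPM to 2.17, 2.97 and 3.22 CPM. It was the least abundant member tested in this comparison, with 10 to 24 counts in the controls and 43 to 55 after knockdown, and it was at 0 in all HepG2 libraries. It lies opposite SMARCB1, which shares 77% of its exon bases, and strand use in the counting is not given in the sources used here, so reads of the pair cannot be told apart.

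In translocation and signal peptide removal, SSR1 and SEC61A1 rose, SPCS3 fell and SEC61B was not called. SSR1, a subunit of the translocon-associated TRAP complex, measured 411, 439 and 460.1 CPM in the controls and 694, 759.6 and 787 CPM after knockdown (log2 fold change 0.77 with SE 0.05, adjusted p 9.4e-18). SEC61A1, the channel subunit itself, had a log2 fold change of 0.42. SPCS3 (chr4:176319964-176332245, plus strand), a subunit of the signal peptidase, had the smallest adjusted p of the module and moved in the opposite direction. It measured 65.9, 68.3 and 69.7 CPM in the controls and 22.6, 22.7 and 23.9 CPM after knockdown, 33.9% of control (log2 fold change -1.56 with SE 0.06, adjusted p 4.9e-24). It was the only member to fall by more than 1.5-fold in this comparison. Of the other signal peptidase subunits, SPCS1 fell (-0.80), SPCS2 and SEC11A rose (0.72 and 0.23) and SEC11C was not called (0.10). The last 3 were chosen after their values were seen.

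All 4 members of the COPII coat and the retrieval receptors rose, each by less than 1.5-fold. KDELR2 and KDELR3, receptors that return KDEL-tagged chaperones from the Golgi, had log2 fold changes of 0.39 and 0.26, SEC24D, a cargo adaptor of COPII, 0.25, and SEC31A, of its outer coat, 0.10. Without CD146 shRNA library 3, the library with more hepatocyte marker counts, 32 members rose, and SEC31A and DERL2 lost the call. Without control library 1, which was low for most members, 31 rose, and KDELR3 lost it too. Of the fits that left out 1 library, SEC31A and DERL2 kept the call only without CD146 shRNA library 1. Both also lost it without the filter, with library totals and with limma on FPKM, and DERL2 with DESeq2.

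The elements in the promoters can be set beside these values as a description. All 11 tested members with an element rose, by log2 fold changes of 0.22 to 1.08 (median 0.67). Of the 28 tested members with a promoter but no element, 19 rose, 4 fell and 5 were not called (median 0.42). Outside the module, 1 of 7 tested genes with ERSE in the same window rose (median -0.02), 3 of 8 with ERSE-II rose and 28 of 102 with the UPRE core rose (27.5%). With any of the elements 32 of 117 rose (27.4%), against 26.4% of the remaining genes with a promoter.

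Markers of other cell types moved with the knockdown. The summed level of 5 endothelial markers was 2.88 to 3.48 CPM in the controls and 23.5 to 24.3 CPM after knockdown, mostly CDH5, the 1 gene of the list that reached a mean of 10 CPM, with KDR at 0 after knockdown. Fibroblast and stellate markers (6 genes) summed to 59.4 to 68.8 CPM and 93.9 to 109.2 CPM, mostly COL1A1, with LUM and DCN at 4 counts or fewer after knockdown, and 5 cholangiocyte markers to 190.4 to 205 CPM and 159.7 to 164 CPM. The 4 plasma cell markers had at most 3 counts in every library labelled Hep3B. Mitochondrially encoded transcripts made up 7.72 to 8.02% of counts in the controls and 9.43 to 10.5% after knockdown. Their part in the module's rise was not tested.

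Cytosolic and mitochondrial chaperones went the other way. Of 26 genes, 25 fell and 1 rose with CD146 shRNA (median log2 fold change -0.58), against 28.5% and 26.8% of all genes (55.3% in all). HSPA8, the constitutive cytosolic HSP70, went from 1312 ± 63.6 to 712 ± 82.0 CPM (mean ± SD, n = 3), CHORDC1, an HSP90 co-chaperone, had the largest fall (-1.55), and STIP1, the HSP70-HSP90 adaptor, was the gene that rose (0.19). The list took 1.29, 1.33 and 1.28% of counts in the controls and 0.850, 0.879 and 0.891% after knockdown, while the ER members gained share.

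In HepG2 cells given the CD146 vector, changes in the module were small. Of 44 members tested, 14 fell, 2 rose and 28 were not called, against 10.3% of all 15300 genes called downward and 9.55% upward (19.8% in all). None rose or fell by 1.5-fold, against 2.73% and 1.05% of all genes, and the median log2 fold change was -0.04 against 0.00 for all genes. The groups did not overlap for 17 members that were lower and 6 that were higher, against 16.5% and 16.6% of all genes (33.1% in all). The split between falling and rising members rests on the scaling. With library totals as the only scaling 5 fell and 9 rose, and with limma on the authors' FPKM 3 fell and 6 rose. P4HB, CREB3L2 and WFS1 fell under both, and HSPA5, DNAJB9, DNAJC3, XBP1 and EDEM1 were called upward under both. The share of all calls that were upward was 48.1% with the TMM scaling used here, 79.5% with library totals and 76.3% with limma on FPKM. The members took 1.55, 1.52 and 1.53% of counts with pLVX and 1.55, 1.52 and 1.51% with the CD146 vector.

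The disulfide isomerases held 4 of the 14 that fell. P4HB, the PDI subunit of prolyl 4-hydroxylase, measured 1653, 1546 and 1557 CPM with pLVX and 1396, 1403 and 1412 CPM with the CD146 vector (log2 fold change -0.18 with SE 0.03, adjusted p 5.3e-06). PDIA6 measured 653, 616 and 637 CPM and 586, 567 and 555 CPM (log2 fold change -0.16 with SE 0.03, adjusted p 0.00011), and PDIA3 874, 866 and 862 CPM and 795, 796 and 767 CPM (log2 fold change -0.14 with SE 0.03, adjusted p 0.00021). Every library with the CD146 vector lay below every pLVX library for these 3 genes. PDIA4 had a log2 fold change of -0.08 (adjusted p 0.043), a call lost with DESeq2, library totals, limma on FPKM, the replicate block, the fit of all 12 libraries and on leaving out any one library other than pLVX library 3. The calls of PDIA3 and PDIA6 were lost with limma on FPKM (adjusted p 0.1 for both), and that of PDIA3 also with library totals (adjusted p 0.064).

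Of the chaperones, HSP90B1 measured 2709.9, 2534 and 2606 CPM with pLVX and 2407, 2365 and 2352 CPM with the CD146 vector (log2 fold change -0.14 with SE 0.03, adjusted p 0.00016), and CALR had -0.11. HSP90B1 was not called with library totals (adjusted p 0.055) or limma on FPKM (adjusted p 0.15). HSPA5, HYOU1, CANX and all 5 co-chaperones were not called, with log2 fold changes from -0.23 (SDF2L1) to 0.13 (DNAJB9). The call of CALR was lost with library totals, with limma on FPKM and in the fit of all 12 libraries. MANF fell by 0.11 on the log2 scale (adjusted p 0.048), a call lost with DESeq2, library totals, limma on FPKM, no filter, the replicate block, the fit of all 12 libraries and on leaving out any one library other than pLVX library 2.

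Of the sensors, ERN1 rose in HepG2 too, from 36.6, 40.2 and 37.1 CPM to 43.9, 44.6 and 47.5 CPM (log2 fold change 0.25 with SE 0.06, adjusted p 0.0014), with no overlap between the groups. Its adjusted p was 0.052 with limma on FPKM. CREB3L2 fell, from 313, 299 and 298 CPM to 264, 254 and 259 CPM (log2 fold change -0.23 with SE 0.03, adjusted p 3.5e-07). XBP1 measured 385, 378 and 383 CPM and 404, 387 and 397 CPM and was not called (log2 fold change 0.05 with SE 0.03, adjusted p 0.32), though it was with library totals (0.12, adjusted p 0.0034). ATF6 measured 69.4, 66.5 and 68.9 CPM and 65.3, 64.8 and 70.4 CPM (log2 fold change -0.03 with SE 0.05, adjusted p 0.75), and its sign turned with library totals (0.04). EIF2AK3 measured 69.9, 67.8 and 65.0 CPM and 76.9, 68.3 and 66.3 CPM (log2 fold change 0.06 with SE 0.05, adjusted p 0.49), and its sign turned without CD146 vector library 1 (-0.01).

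In ERAD, WFS1 measured 64.4, 62.1 and 60.5 CPM with pLVX and 50.4, 50.3 and 52.3 CPM with the CD146 vector (log2 fold change -0.29 with SE 0.05, adjusted p 2.8e-05). OS9 measured 247, 237 and 245 CPM and 215, 222 and 209 CPM (log2 fold change -0.18 with SE 0.04, adjusted p 0.00016), a call that was lost with limma on FPKM (adjusted p 0.088). Both genes were lower in each library with the vector. SEL1L was the second gene that rose, from 221, 224 and 223 CPM to 248, 235 and 237 CPM (log2 fold change 0.11 with SE 0.03, adjusted p 0.024). The SEL1L call did not hold with DESeq2 (0.057), without the filter (0.057), in a fit of all 12 libraries (0.078), or without any single pLVX library or without CD146 vector library 1 (0.056 to 0.16), all adjusted p. The other 8 tested in this class were not called.

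In secretory transport, KDELR2 measured 435, 458 and 447 CPM with pLVX and 428, 395 and 401 CPM with the CD146 vector (log2 fold change -0.13 with SE 0.03, adjusted p 0.0019), and SEC31A 441, 428 and 417 CPM and 399.7, 389.8 and 389.6 CPM (log2 fold change -0.13 with SE 0.03, adjusted p 0.0025). The 2 groups did not overlap for either gene. Both calls were lost with library totals and with limma on FPKM (adjusted p 0.18 to 0.3). KDELR3 (-0.24) and SSR1 (-0.11) also fell, and both calls were likewise lost with library totals and limma on FPKM, that of KDELR3 also with DESeq2 and without pLVX library 1 or CD146 vector library 3, and that of SSR1 also in the fit of all 12 libraries and without pLVX library 3 or CD146 vector library 2. SEC24D, SEC61A1, SEC61B and SPCS3 were not called. Beside these values, the mitochondrially encoded share was 12.6 to 13.0% with pLVX and 11.2 to 11.8% with the vector, and the 6 fibroblast and stellate markers summed to 30.8 to 31.9 CPM and 38.5 to 45.5 CPM, mostly ACTA2. Cholangiocyte markers summed to 346 to 364 CPM and 486 to 499.8 CPM, hepatocyte markers to 67626 to 69838 CPM and 62718 to 63402 CPM, and leukocyte markers, nearly all LYZ, to 1273 to 1339 CPM and 991 to 1059 CPM. Their part was not tested.

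**Figure D3:**
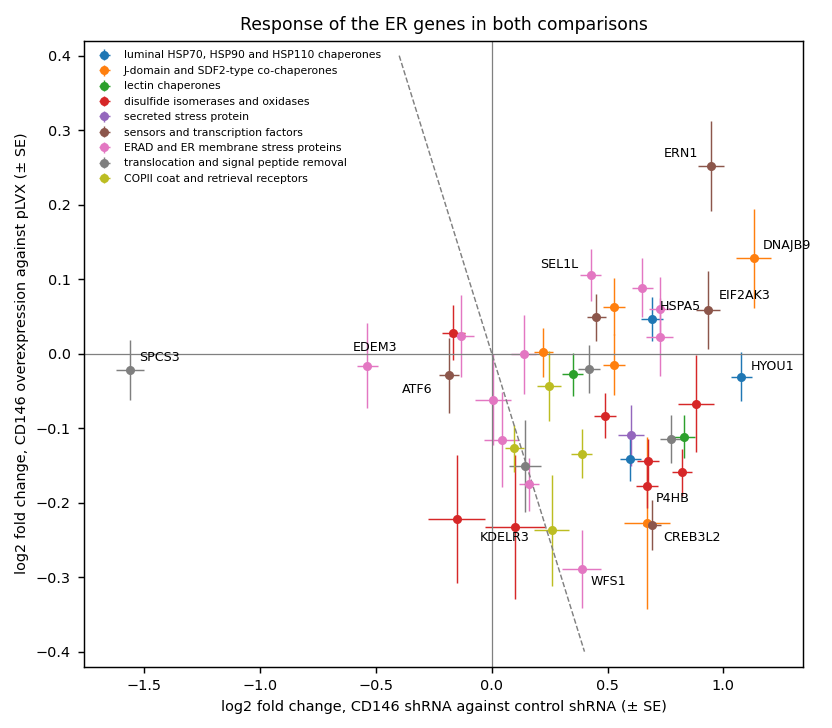
Log2 fold change of each member on CD146 knockdown in libraries labelled Hep3B (horizontal) and on CD146 overexpression in HepG2 (vertical), with standard errors as bars and colour for the role. The dashed line marks responses of equal size and opposite sign. Members spread from -1.56 to 1.13 along the horizontal axis and from -0.29 to 0.25 along the vertical one, whose scale differs.

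Whether both responses mirrored each other was tested directly. Over all 12 libraries, the sum of the knockdown and the overexpression log2 fold changes was fitted for each gene, which is 0 where raising and lowering MCAM had equal and opposite effects. MCAM itself changed by unequal amounts, -2.25 on knockdown and 6.37 on overexpression, and its own sum was 4.12 (SE 0.08). Line, medium, and the method and size of the perturbation cannot be told apart in this test. The sum differed from 0 for 31 of 45 members, 28 positive and 3 negative, against 17.2% and 19.2% of 18870 genes (36.4% in all). The median sum was 0.44, against 0.04 for all genes. Among the members called, DNAJB9 had the largest positive sum (1.26, SE 0.10), followed by ERN1 (1.20) and HYOU1 (1.05), and SPCS3 the largest negative one (-1.58, SE 0.08). A positive sum of at least 1.5-fold was seen in 13 members (9.67% of all genes) and a negative one in 1 (5.62%).

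All 14 members that fell with the CD146 vector rose with CD146 shRNA, where 34 of the 44 members tested rose. The set of 14 rests on the TMM scaling, since 5 members fell with library totals and 3 with limma on FPKM. For 10 of the 14 the sum was above 0, and for OS9, WFS1, SEC31A and KDELR3 it was not called. The sums were -0.01 (SE 0.06) for OS9, 0.10 (SE 0.10) for WFS1, -0.03 (SE 0.05) for SEC31A and 0.03 (SE 0.11) for KDELR3. A sum not called may still differ from 0. WFS1 had 0.39 on knockdown and -0.29 on overexpression, and KDELR3 0.26 and -0.24. ERN1 and SEL1L rose in both comparisons, with positive sums (1.20 and 0.54). Of the 5 members that fell on knockdown, none was called in HepG2, and the sums of ATF6 (-0.21), EDEM3 (-0.55) and SPCS3 were negative.

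Between the control cells, most of the module was higher in pLVX HepG2 than in the control shRNA libraries labelled Hep3B. Line, vector and medium cannot be told apart here, and these controls also serve in the comparisons above. Of 44 members tested, 37 were higher in HepG2, 5 were lower and 2 were not called, against 42.1% of all 17401 genes called higher and 43% lower (85.2% in all). The median log2 difference was 0.74, against -0.02 for all genes. Of these members 25 were higher by at least 1.5-fold (31.2% of all genes) and 2 lower (32.2%). The groups did not overlap for 36 that were higher and 7 that were lower, against 40.8% and 44.2% of all genes (85% in all). Other genes of the ER pathways, described below, lay nearer the shares of all genes. Of 144 tested, 73 were higher in HepG2 (50.7%) and 58 lower (40.3%), with a median of 0.12. With library totals or limma on FPKM the median of all genes lay at -0.38 or -0.36. Of all calls 36.5% or 36.4% were upward in place of 49.5%. Members called higher were then 27 or 28 in place of 37, and 11 members were lower in both. HSPA5, DNAJC3, CREB3L2, EDEM1 and DERL2 then changed sign. Marker sums are given in CPM of the library total, without the TMM scaling of the member values. Beside the module, hepatocyte markers summed to 7.63 to 10.5 CPM in the controls labelled Hep3B, mostly HNF4A, and to 67626 to 69838 CPM in pLVX HepG2. The 5 leukocyte markers summed to 1.08 to 1.45 CPM and 1273 to 1339 CPM, nearly all LYZ, with PTPRC and CD3E at 4 counts or fewer. Cholangiocyte markers summed to 190.4 to 205 CPM and 346 to 364 CPM, fibroblast and stellate markers to 59.4 to 68.8 CPM and 30.8 to 31.9 CPM, endothelial markers to 2.88 to 3.48 CPM and 5.38 to 6.97 CPM, and the mitochondrially encoded share was 7.72 to 8.02% and 12.6 to 13.0%. Their part was not tested.

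Chaperones and isomerases were among the members with the smallest adjusted p. CALR measured 822, 900.3 and 902 CPM in the controls labelled Hep3B and 1833, 1803 and 1804 CPM in pLVX HepG2 (log2 fold change 1.09 with SE 0.04, adjusted p 1e-48). P4HB measured 646, 689 and 686 CPM and 1653, 1546 and 1557 CPM (log2 fold change 1.27 with SE 0.04, adjusted p 9.5e-55), PDIA4 380.3, 414 and 417 CPM and 843, 817 and 794 CPM (log2 fold change 1.06 with SE 0.04, adjusted p 6.6e-48), and MANF 47.8, 55.5 and 51.2 CPM and 129, 123 and 128 CPM (log2 fold change 1.34 with SE 0.05, adjusted p 5e-47). For each, all HepG2 libraries lay above all of the others. DNAJC10 measured 172, 178 and 176 CPM and 306, 308 and 315 CPM (log2 fold change 0.86 with SE 0.04, adjusted p 7.4e-40). All 9 disulfide isomerases and oxidases were higher in HepG2. ERO1B, an oxidase paralog of ERO1A, had 1 to 4 counts in the controls labelled Hep3B and 111 to 152 in pLVX HepG2, so it passed the filter through HepG2. CANX was the chaperone that was lower, with 1953, 2079 and 2115 CPM and 1632, 1598 and 1597 CPM (log2 fold change -0.31 with SE 0.04, adjusted p 1.4e-12).

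The sensors split. XBP1 measured 168, 176 and 177 CPM in the controls labelled Hep3B and 385, 378 and 383 CPM in HepG2 (log2 fold change 1.17 with SE 0.04, adjusted p 1.8e-51). ATF6 was lower, with 141, 146 and 149 CPM against 69.4, 66.5 and 68.9 CPM (log2 fold change -1.06 with SE 0.05, adjusted p 6.8e-41). XBP1 and ATF6 thus stood on opposite sides with no overlap between the groups. EIF2AK3 measured 48.3, 52.5 and 54.5 CPM and 69.9, 67.8 and 65.0 CPM (log2 fold change 0.42 with SE 0.05, adjusted p 1.2e-11), a call lost with library totals (adjusted p 0.24). CREB3L2 measured 299, 289 and 293 CPM and 313, 299 and 298 CPM (log2 fold change 0.09 with SE 0.04, adjusted p 0.03), with groups that overlapped, a value of -0.27 under library totals and no call with DESeq2 (adjusted p 0.094). ERN1 measured 40.6, 41.8 and 43.4 CPM and 36.6, 40.2 and 37.1 CPM and was not called (log2 fold change -0.10 with SE 0.06, adjusted p 0.11), while under library totals it was lower in HepG2 (-0.46, adjusted p 1.6e-10).

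In ERAD, WFS1 measured 17.3, 18.1 and 17.3 CPM in the controls labelled Hep3B and 64.4, 62.1 and 60.5 CPM in HepG2 (log2 fold change 1.86 with SE 0.07, adjusted p 1.3e-48). EDEM3 was lower, with 121, 120.5 and 129 CPM and 62.7, 55.1 and 53.5 CPM (log2 fold change -1.08 with SE 0.05, adjusted p 9.4e-39), as was DERL1, with 73.7, 80.0 and 85.6 CPM and 64.8, 64.9 and 59.4 CPM (log2 fold change -0.30 with SE 0.05, adjusted p 1.4e-07). EDEM3, ATF6 and DERL1 were lower both in the knockdown libraries and in HepG2 than in the same control libraries. SPCS3 measured 65.9, 68.3 and 69.7 CPM and 193, 222 and 214 CPM (log2 fold change 1.67 with SE 0.05, adjusted p 1.1e-58), the other side from its knockdown response. SEC31A measured 166, 168 and 166 CPM and 441, 428 and 417 CPM (log2 fold change 1.40 with SE 0.04, adjusted p 2.7e-58), and SEC61A1 was lower, with 583, 622 and 641 CPM and 422, 410.2 and 400.0 CPM (log2 fold change -0.55 with SE 0.04, adjusted p 7.1e-26). All 4 members of the COPII coat and the retrieval receptors were higher in HepG2, and KDELR2 and KDELR3 lost the call with library totals and with limma on FPKM, as did SSR1.

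**Figure D4:**
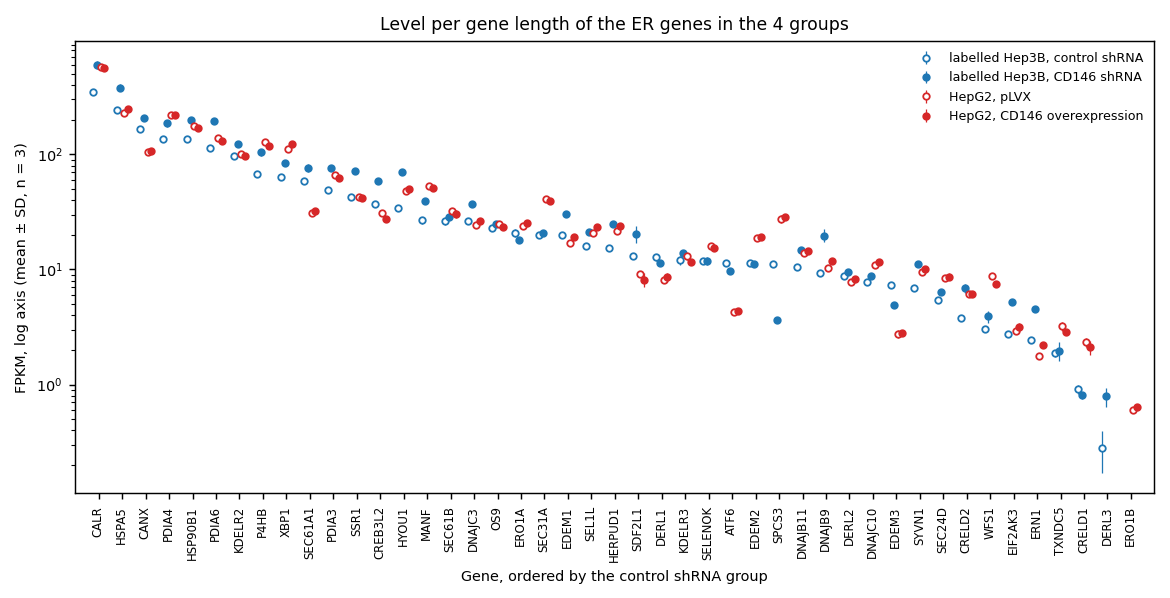
Mean FPKM of the members in the 4 groups on a log axis, ordered by the control shRNA group, with the SD over 3 libraries as bars. CALR is the highest member in each group, followed by HSPA5.

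Per transcript length, the order of the members was headed by CALR and HSPA5 in every group. With control shRNA, CALR stood at 347 ± 16.2 FPKM, HSPA5 at 241 ± 10.3 and CANX at 165 ± 6.05 FPKM. In pLVX HepG2 CALR stood at 576 ± 2.69 FPKM and HSPA5 at 230.2 ± 3.02 FPKM (mean ± SD, n = 3). The sensors lay far lower, with ERN1 at 2.43 ± 0.0721 FPKM and EIF2AK3 at 2.78 ± 0.156 FPKM in the control shRNA libraries, while XBP1 reached 63.7 FPKM there and 112 ± 0.971 FPKM in pLVX HepG2. Of the 45 members, 26 share exon bases with another gene of GENCODE 29, and 4 share over 20%: DERL3, TXNDC5 (60.6%, with the readthrough gene BLOC1S5-TXNDC5), PDIA6 (25.2%, with ATP6V1C2) and DNAJB11 (23.2%). These are shares of exon bases and not of reads, so how far the levels of these 4 members are affected is not known. Overlaps were not examined for genes outside the module.

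Other genes of the ER pathways, 146 in 9 lists, were counted beside the members. On CD146 knockdown 78 of 141 tested rose (55.3%) and 25 fell (17.7%), against 26.8% and 28.5% of all genes (median log2 fold change 0.19). Among other folding enzymes and co-chaperones 18 of 27 rose and 6 fell, led by the proline isomerase PPIC (1.31) and by ERP29 (-0.89). In glycoprotein quality control 7 of 10 rose and 1 fell, with GANAB, the catalytic subunit of glucosidase II, at 1.01 and MOGS, glucosidase I, at -0.42. Other ERAD machinery lay near the share of all genes, with 8 of 23 up (34.8%, ERLIN2 0.52) and 6 down (26.1%, UBE2J1, an ER ubiquitin-conjugating enzyme, -0.76). The translocon, signal peptidase and oligosaccharyltransferase list had 17 of 26 up (SEC61A2 0.84) and 4 down (SPCS1 -0.80). COPII and COPI genes had 9 of 22 up (the cargo receptor SURF4, 0.68) and 4 down (COPB1 -0.55). ER calcium genes had 5 of 9 up (RCN1 1.11) and 1 down (STIM1, the calcium sensor of the ER, -0.82), and ER-phagy receptors 4 of 6 up (RTN3 0.88).

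**Figure D5:**
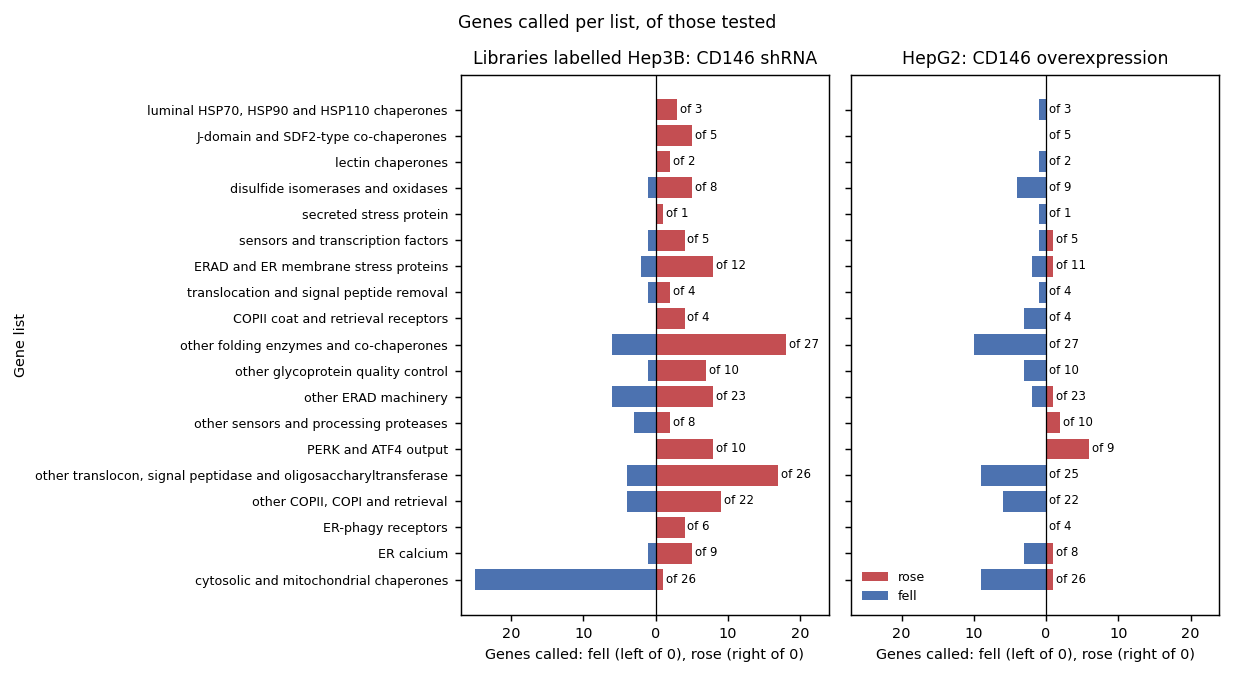
Number of genes called higher (right of 0) and lower (left of 0) in each role of the module, in the lists of other pathway genes and among cytosolic chaperones, for knockdown and overexpression, with the number tested beside each bar. On knockdown rises outnumber falls in most lists and 25 of 26 cytosolic chaperones fell, and on overexpression 10 of 27 other folding enzymes fell.

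Targets of the PERK and ATF4 arm rose in 8 of 10 cases on knockdown and none fell (26.8% and 28.5% of all genes). DDIT3, the transcription factor CHOP, measured 5.47, 7.89 and 7.53 CPM in the controls and 17.4, 18.1 and 17.4 CPM after knockdown (log2 fold change 1.35 with SE 0.11, adjusted p 6.6e-14). On overexpression 6 of 9 rose and none fell (9.55% and 10.3% of all genes), with ATF3 leading, from 4.42, 5.16 and 4.37 CPM with pLVX to 13.5, 13.3 and 11.6 CPM with the vector (log2 fold change 1.44 with SE 0.13, adjusted p 2.4e-13). Members of this list rose in both comparisons. With library totals 8 rose and 2 fell on knockdown, and 8 of 9 rose on overexpression. Among other sensors and proteases 2 of 8 rose on knockdown (CREB3L4 0.39) and 3 fell, led by MBTPS2, the site-2 protease that cleaves ATF6 (-0.54), while on overexpression 2 of 10 rose, led by ATF4 (0.11), and none fell.

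On overexpression 10 of 138 other pathway genes rose (7.25%) and 33 fell (23.9%), against 9.55% and 10.3% of all genes. This split too rests on the scaling: with library totals 24 rose and 9 fell, and with limma on FPKM 15 rose and 9 fell. The counts that follow are those with TMM scaling. None of the 27 folding enzymes rose and 10 fell, led by PDIA2 (-1.43, at 1.87 ± 0.238 CPM with pLVX, mean ± SD, n = 3). None of 25 translocon genes rose and 9 fell (SSR4 -0.29), none of 22 COPII and COPI genes rose and 6 fell (COPE -0.20), and none of 10 glycoprotein quality control genes rose and 3 fell (GANAB -0.13). ERAD had 1 of 23 up (UBXN4 0.09) and 2 down (8.70%, AUP1 -0.18), calcium genes 1 of 8 up (RCN1 0.88) and 3 down (CALU -0.28), and ER-phagy receptors 0 of 4 in either direction. RCN1, a luminal calcium-binding protein, rose in both comparisons. Of the 26 cytosolic and mitochondrial chaperones, 9 fell and 1 rose (median -0.06), while none fell with library totals or limma on FPKM. With those scalings none of the COPII and COPI or glycoprotein quality control genes fell either.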

How the data were processed

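Processed tables of 12 poly(A) RNA-seq libraries (4 groups, 3 each) were used. Per the submitters' processing notes, cutadapt 1.9.1, HISAT2 2.2.1 and HTSeq 0.6.1 were used. The genome build, annotation and strand setting are not given in the sources used here. The authors deposited raw read counts per gene and FPKM values, which are scaled for gene length and depth. Counts are analysed, and FPKM serves to compare levels between genes and as an alternative.

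Counts were fitted with edgeR 4.0.16 (R 4.3.3), using TMM scaling, filterByExpr and the two-sided quasi-likelihood F test, separately for each pair of groups and over all 12 libraries for the sum of both responses. Benjamini-Hochberg adjustment ran over all genes tested, with calls at an adjusted p under 0.05. SE was derived from the F statistic. CPM values were scaled with TMM over all 12 libraries, except the cell type marker levels and the floors, which are CPM of the library total. The TMM factors were 1.075 to 1.117 in libraries labelled Hep3B and 0.885 to 0.937 in HepG2. Alternatives were DESeq2 1.42.0, RLE scaling, library totals, no filter, limma 3.58.1 on log2(FPKM + 0.1), a replicate block, a joint fit and leaving out each library. On simulated counts for the knockdown comparison (16968 genes, 200 changed), 88.1% of changes of 1 on the log2 scale were recovered, 80.3% of 0.585 and 55.4% of 0.3. For overexpression (15309 genes), 93.2%, 80.0% and 60.0% were recovered, and for the sum of both responses (18023 genes) 68.1%, 55.9% and 22.4%. Totals were 12772991 to 18129816 counts (floors of 3 counts cover counting error only). No 2 libraries agreed within sampling noise.

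Per comparison, values per library are given for MCAM, for ERN1, XBP1, ATF6, EIF2AK3 and CREB3L2, for as many as 10 members of lowest adjusted p, and for members called against the majority. HSPA5 and DERL3 on knockdown were added after their values were seen, as were HSPA8 and the lead genes per length. Of each other list the called gene with the largest change in each direction is named. The members and lists were chosen with earlier results of these data known. Gene positions are from GENCODE 29 (GRCh38) and promoters from RefSeq (GRCh38.p14).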

Additional observations from a re-analysis of the deposited data

Results flagged for a closer look

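The results in this section were marked because the sum of the responses in both lines differed from 0 (edgeR quasi-likelihood, Benjamini-Hochberg adjusted, 12 libraries). A sum of 0 stands for equal and opposite responses to lower and to higher MCAM. Any other sum does not show that the responses differ, since equal rises in both lines would also give one. Among the sensors and transcription factors the sum of both log2 fold changes was 1.20 for ERN1 (adjusted p 3.6e-18), 0.50 for XBP1, -0.21 for ATF6, 1.00 for EIF2AK3 and 0.46 for CREB3L2. Among chaperones and co-chaperones it was 1.05 for HYOU1, 1.26 for DNAJB9, 0.74 for HSPA5, 0.72 for CALR and 0.66 for PDIA6. In ERAD it was 0.79 for HERPUD1, 0.74 for EDEM1 and -0.55 for EDEM3. SPCS3, the signal peptidase subunit, had -1.58 (adjusted p 6.9e-25). ERN1 rose in both lines, CREB3L2, CALR and PDIA6 rose in the one and fell in the other, and the remaining genes were called on knockdown and not in HepG2. The fall of CALR was lost with library totals and with limma on FPKM, and that of PDIA6 with limma on FPKM. MCAM itself had a sum of 4.12, as it rose more with the vector than it fell with the shRNA. Line, medium, and the method and size of the perturbation cannot be told apart.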

How the results depend on the processing

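On knockdown 31 to 35 members rose and 3 to 5 fell when each library was left out (8645 to 8894 genes called in all), and the 3 occurred without control library 3, when ERO1A and DERL1 were not called. On overexpression the count of members that rose was 1 with DESeq2, without the filter on low counts and in the fit of all 12 libraries, 6 with limma on FPKM and 9 with library totals. The count that fell was 3 with limma on FPKM and 5 with library totals. Leaving out each library gave 1 to 2 and 11 to 14. DESeq2 called 1839 genes in all on overexpression in place of 3037 (2262 to 2675 without single libraries). Between the controls 11 members were lower with limma on FPKM and with library totals in place of 5. In the same order 28 and 27 members were higher in place of 37. Without single libraries 5 to 6 were lower and 36 to 37 higher (14580 to 15035 genes in all). The sum of both responses was positive for 26 to 28 members and negative for 3 to 5 without single libraries (6251 to 6631 genes in all), and the 5 occurred without control shRNA library 1 and without CD146 shRNA library 3. Signs turned for ATF6 on overexpression (0.04 with limma on FPKM and with library totals), EIF2AK3 on overexpression (-0.01 to 0.11 without single libraries, with the -0.01 lacking CD146 vector library 1) and CREB3L2 between the controls (-0.27 with limma on FPKM and with library totals). With the same settings HSPA5, DNAJC3, EDEM1 and DERL2 also changed sign between the controls. Library totals differ from the main scaling by construction, and FPKM is likewise scaled for depth. Both shifted the median of all genes alike, to 0.074 and 0.071 on overexpression and to -0.38 and -0.36 between the controls. They are therefore not independent alternatives. The cause of the other changes was not tested.

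With the replicate number as a block, 34 members rose and 5 fell on knockdown (9543 genes called in all), so the block changed no member call there. On overexpression the block ended the calls of PDIA4 and MANF and added CRELD1, and in the test of the sum it added CRELD1. Same-numbered libraries correlated at 0.13, 0.0398 and 0.031 on knockdown, with number 1 the highest and library 1 also lowest for most members in both groups, and at -0.0544, -0.0277 and 0.0306 on overexpression. Not every library correlated best with its own number, and the numbers were not taken to pair the libraries. The lowest members did not pass the filter everywhere. ERO1B, with 1 to 4 counts in libraries labelled Hep3B, was not tested on knockdown. DERL3, with 0 counts in HepG2, was not tested on overexpression or between the controls.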

Other observations

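Sensor and ER-phagy genes outside the module also differed between the control cells. CREB3L3, a liver-enriched relative of CREB3L2, had at most 5 counts in the control shRNA libraries labelled Hep3B and stood at 46.8 ± 2.12 CPM in pLVX HepG2 (mean ± SD, n = 3), and ERN2, the paralog of ERN1, was at 0 in the former and at 2.84 ± 0.227 CPM in the latter. ATL3 and RETREG1, ER-phagy receptors, ran in the other direction, at 133 ± 3.65 and 25.3 ± 1.10 CPM in the controls labelled Hep3B against at most 5 and 3 counts in pLVX HepG2. These genes were chosen after their values were seen, except ERN2 and ATL3.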
